A study of Mus musculus with 8 samples.

Results

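Etv5, a transcription factor gene switched on downstream of the kinase ERK, was examined with 7 further genes of the ERK feedback group, namely Etv4, Spry1, Spry2, Spred1, Spred2, Dusp4 and Dusp6. They were taken by symbol from the authors' table of normalized counts, which holds 56832 rows, and each of the 8 has a row. Microglia, which are the brain's own macrophages, had been sorted by flow cytometry from young adult male mice of the 5xFAD line, in which neurons express transgenes for mutant human amyloid precursor protein and presenilin, so that every group carries amyloid pathology and no group lacks the transgenes. Ethanol mice received 3 g/kg of a 20% solution by intraperitoneal injection on 5 days of each week for 4 weeks, followed by 2 weeks without treatment, and saline mice received saline on the same schedule. Each group had 4 RNA-seq libraries, sample 1 to sample 4, made from brain. The titles call them separate samples without tying each to a single animal. P-values and intervals therefore reflect library-to-library spread, which may be partly technical. The 8 genes were picked with results of this same comparison in view, so the ethanol and saline values of all 8 are a description. Intervals and counts of calls from the fit of all genes are printed for them, and nothing is supported with these.

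ERK is the last kinase of the cascade that carries signals from growth factor receptors through Ras, Raf and MEK to the nucleus. In microglia the main receptor of this kind is Csf1r, the receptor for colony-stimulating factor 1 and interleukin 34, which the cells need to survive. Active ERK induces its own inhibitors. Sprouty and Spred proteins act on the steps between the receptor and Raf, Dusp6 and Dusp4 remove phosphate from ERK itself, and the ETS factors Etv4 and Etv5 carry the transcriptional output. Several of these genes are repressed by Capicua, the product of Cic, which ERK phosphorylates and inactivates, and their transcript levels are widely used as a readout of ERK activity.

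The table of RefSeq promoters (build GRCm38.p6) held 7 start sites for 6 members, Etv5 (2 sites), Spry1, Spry2, Spred1, Spred2 and Dusp6, and the 250 bases before each start were searched on both strands. The octamer to which Capicua binds was searched as TGAATGAA, TGAATGGA, TCAATGAA and TCAATGGA, and its core, which lies within each octamer, as TGAATG and TCAATG. The core was found before 3 of the 7 starts, against 17% of all 32851 promoters, and the octamer before 2 of them, against 3.19%. The second Etv5 start had 3 cores and no octamer, Dusp6 had 2 cores, one of them within an octamer, and Spry2 had 1 octamer. No match to the ETS motif CCGGAAG (6.91% of all promoters) or the AP-1 motif TGANTCA (6.75%) was found in the 7 windows. The first Etv5 start had no core and no octamer, and which start microglia use was not examined. Of the windows of Etv5 and Dusp6, the most abundant members, those with more than 1 core are shown, with the cores in capitals. They are the minus strand of chr16:22438369-22438618 and the plus strand of chr10:99262981-99263230.
Etv5, second start: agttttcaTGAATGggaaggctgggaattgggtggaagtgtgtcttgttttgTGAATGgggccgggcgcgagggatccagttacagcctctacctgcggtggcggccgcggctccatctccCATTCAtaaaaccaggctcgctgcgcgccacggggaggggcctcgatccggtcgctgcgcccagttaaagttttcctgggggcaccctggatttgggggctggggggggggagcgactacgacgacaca
Dusp6: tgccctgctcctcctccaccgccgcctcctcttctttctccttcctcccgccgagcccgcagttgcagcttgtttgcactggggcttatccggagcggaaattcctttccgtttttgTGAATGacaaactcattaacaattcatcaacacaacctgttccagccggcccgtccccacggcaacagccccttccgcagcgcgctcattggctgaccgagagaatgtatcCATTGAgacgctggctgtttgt
These matches describe letters, and binding by Capicua was not measured. The counts were made on a later build, GRCm39, and nothing was joined to them by position.

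Of the 8 members, 5 reached a mean of 10 normalized counts over the 8 libraries, the level needed to enter the fit of 14428 genes, and Etv4, Spry2 and Dusp4 did not. Levels were compared between genes as normalized counts per kilobase of exon (GENCODE M21). Dusp6 was highest, at 2833 ± 319 per kilobase in ethanol and 2816 ± 438 in saline libraries (SD, n = 4 each). Etv5 came next, at 898 ± 54.1 in ethanol and 731 ± 67.9 in saline libraries. Spred1 followed at 313 ± 52.7 in ethanol and 295 ± 13.6 in saline libraries, Spry1 at 166 ± 20.5 in ethanol and 146 ± 40.7 in saline, and Spred2 at 80.8 ± 19.9 in ethanol and 71.4 ± 11.5 in saline. Over all 8 libraries the ranges of Dusp6, Etv5 and Spred1 did not overlap, while those of the neighbours Spry1 and Spred2 did. Etv4, Dusp4 and Spry2 had means of 2.55, 1.11 and 0.820 per kilobase over the 8 libraries, overlapped each other, and lay below Spred2 in every library. In bulk RNA, fewer expressing cells and less RNA per cell cannot be told apart for any of these levels.

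**Figure D1:**
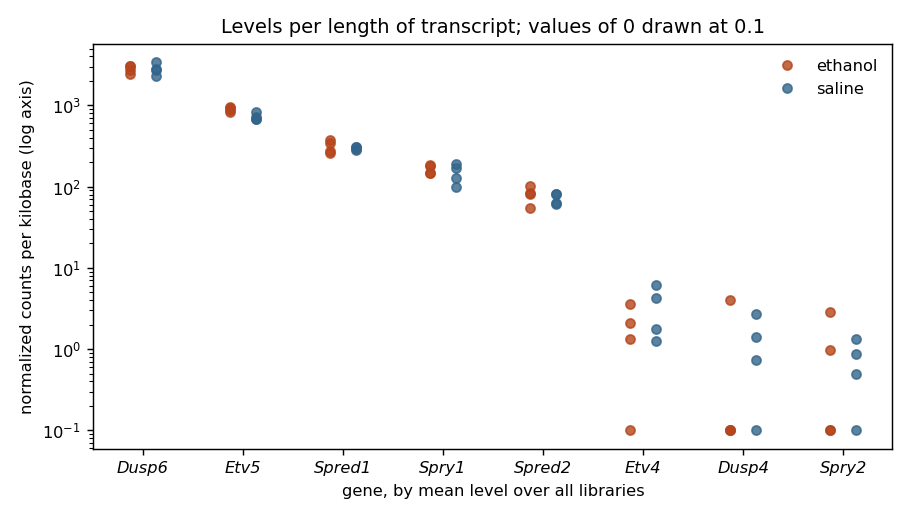
Normalized counts per kilobase of exon (log axis) for the 8 genes in each library, ethanol left of saline, with values of 0 drawn at 0.1. Dusp6, Etv5, Spred1, Spry1 and Spred2 lie between 54.3 and 3384, and no value of Etv4, Dusp4 or Spry2 exceeds 6.15.

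Etv5 encodes a DNA-binding factor of the PEA3 group of ETS proteins. It had 3778, 3924, 3642 and 3402 normalized counts in ethanol samples 1 to 4, against 2793, 2822, 2984 and 3397 in saline samples 1 to 4. The groups did not overlap, with the ethanol libraries higher, but ethanol 4 and saline 4 were nearly equal. Mean levels were 3687 ± 222 in ethanol and 2999 ± 278 in saline libraries (SD, n = 4 each). On the scale of log2(value + 1), limma put the fold at 1.23 (95% interval 1.09 to 1.39). The gene was chosen with this value known. The separation differed between libraries. The log2 difference was 0.46 between the ethanol and saline libraries of samples 1 and 2 and 0.14 between those of samples 3 and 4, a division known from earlier results of these data. Library names also carry a number whose meaning the labels do not give. Within the 3 numbers, the log2 differences were 0.29 for 163 (1 library each), 0.14 for 164 (1 ethanol and 2 saline) and 0.45 for 165 (2 ethanol and 1 saline). Their positive sign was fixed in advance, because the groups do not overlap, and only their sizes are informative.

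In the fit over all genes, 0% of 14428 genes were called at a limma adjusted p under 0.05, and 0 of the 5 fitted members were. An unadjusted limma p under 0.05 was found for 3.63% of the genes and for 1 of the 5 members, Etv5. The groups did not overlap for 2.32% of the genes (1.12% with ethanol higher) and again for 1 of the 5 members, Etv5, with ethanol higher. As the members were chosen on this comparison, nothing is read from these counts.

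Etv4, the close relative of Etv5, was nearly silent. It had 6.52, 0, 11.0 and 4.12 normalized counts in ethanol samples 1 to 4, against 5.55, 3.86, 13.3 and 19.1 in saline samples 1 to 4. The groups overlapped, and these values rest on 21 reads in the ethanol and 44 reads in the saline libraries together. The other member of the PEA3 group, Etv1, named here after its values were seen, was expressed at 85.3 ± 12.2 per kilobase in ethanol and 79.8 ± 8.29 in saline libraries (SD, n = 4 each). Per kilobase, Etv5 was thus the most abundant of the 3 factors in both groups, ahead of Etv1 and Etv4.

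**Figure D2:**
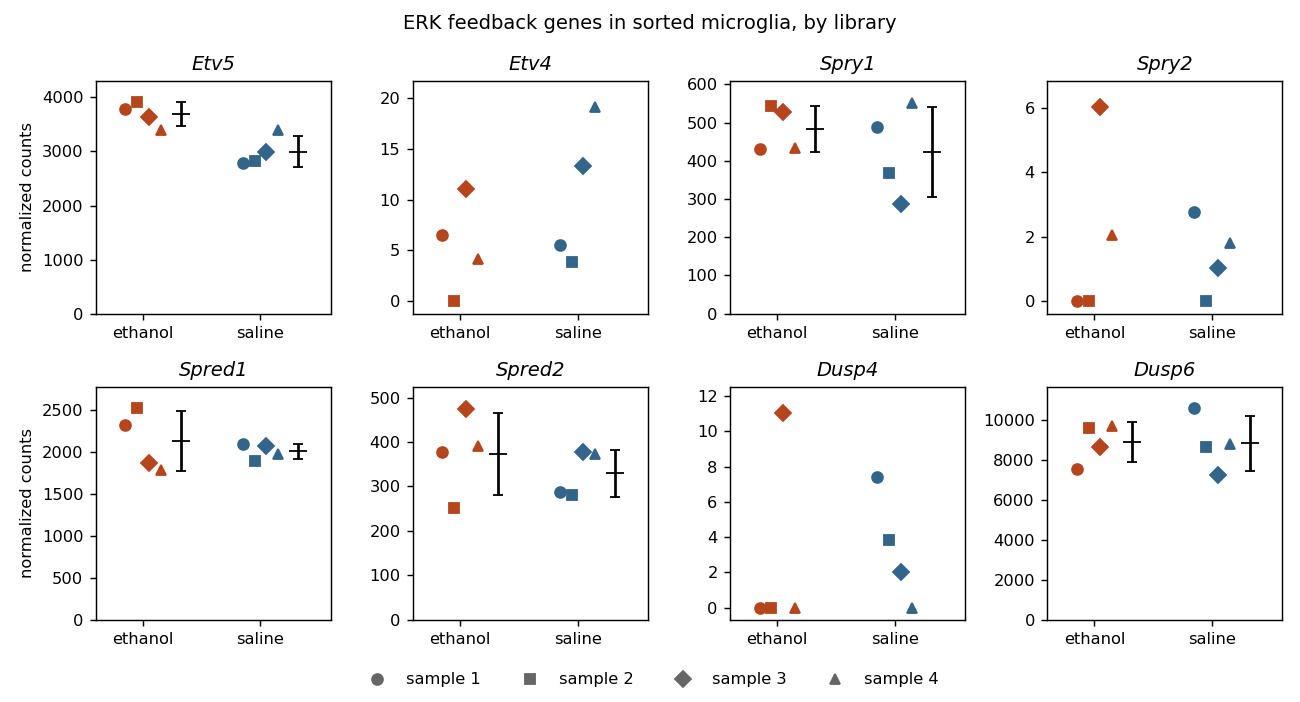
Normalized counts of each gene in the 4 ethanol and 4 saline libraries, with symbols for the sample number and, for the 5 fitted genes, bars for the mean and SD. The 4 ethanol libraries of Etv5 lie at 3402 or above and the 4 saline libraries at 3397 or below, and the groups overlap for the other 7 genes.

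Of the Sprouty genes, whose products hold back Ras activation below receptor tyrosine kinases, Spry1 was expressed and Spry2 was not detectable in several libraries. Spry1 had 431, 543, 526 and 433 normalized counts in ethanol samples 1 to 4, against 487, 369, 286 and 550 in saline samples 1 to 4. Every ethanol value fell inside the saline range, which was wide, with saline 3 lowest and saline 4 highest of all 8. The means were 484 ± 59.7 in ethanol and 423 ± 118 in saline libraries (SD, n = 4 each), and the fold was 1.17 (95% interval 0.897 to 1.53). Without saline 3 the log2 difference was 0.056, against 0.23 with it. Gm42922, an unconfirmed transcript whose annotated span overlaps that of Spry1 on the opposite strand, averaged 8.74 in ethanol and 5.69 in saline libraries. In libraries that do not mark strand, reads from exons shared by both genes could not be told apart. Whether the genes share exons was not examined. Spry2 had 0, 0, 6.02 and 2.06 normalized counts in ethanol samples 1 to 4, against 2.77, 0, 1.02 and 1.82 in saline samples 1 to 4. That is 8 reads in all ethanol and 6 in all saline libraries, too few for a difference to be detectable. The related Spry4, outside the group, was equally scarce, at 0.752 ± 0.960 normalized counts in ethanol and 3.02 ± 4.33 in saline libraries (SD, n = 4 each).

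Both Spred genes, whose products recruit the Ras-inactivating protein neurofibromin to the membrane, were expressed. Spred1 had 2317, 2524, 1865 and 1780 normalized counts in ethanol samples 1 to 4, against 2094, 1890, 2062 and 1968 in saline samples 1 to 4. The saline libraries lay close together while the ethanol libraries fell on both sides of them, samples 1 and 2 above the saline range and samples 3 and 4 below it. The coefficient of variation was 16.8% in ethanol and 4.62% in saline libraries. The means were 2122 ± 357 in ethanol and 2004 ± 92.6 in saline libraries (SD, n = 4 each). The fold was 1.05 (95% interval 0.897 to 1.22), and the log2 difference was 0.28 in samples 1 and 2 and -0.14 in samples 3 and 4. Without ethanol 2 it was -0.020 over the other libraries.

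Spred2 had 378, 251, 473 and 391 normalized counts in ethanol samples 1 to 4, against 288, 281, 378 and 373 in saline samples 1 to 4. Ethanol 3 was highest and ethanol 2 lowest of the 8 libraries, so the ethanol range contained the saline one. The means were 373 ± 92.0 in ethanol and 330 ± 53.0 in saline libraries (SD, n = 4 each), and the fold was 1.11 (95% interval 0.845 to 1.47). Neurofibromin's gene, Nf1, named here after its values were seen, had a log2 fold change of 0.11 (95% interval -0.14 to 0.36).

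Of the phosphatase genes, Dusp6 was abundant and Dusp4 scarce. Dusp6, whose product acts on ERK in the cytoplasm, had 7547, 9587, 8660 and 9695 normalized counts in ethanol samples 1 to 4, against 10598, 8653, 7257 and 8766 in saline samples 1 to 4. The saline range enclosed the ethanol range. The means were 8872 ± 998 in ethanol and 8819 ± 1371 in saline libraries (SD, n = 4 each), and the fold was 1.01 (95% interval 0.871 to 1.17). Its log2 difference was -0.17 in samples 1 and 2 and 0.20 in samples 3 and 4. Over the remaining libraries it was negative without saline 3 (-0.075), without ethanol 2 (-0.025) and without ethanol 4 (-0.030). Dusp4, whose product acts on ERK in the nucleus, had normalized counts of 0 in ethanol samples 1, 2 and 4 and 11.0 in ethanol 3, against 7.40, 3.86, 2.04 and 0 in saline samples 1 to 4. These come from 11 reads in the ethanol libraries, in a single one of the 4, and 14 in the saline libraries.

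**Figure D3:**
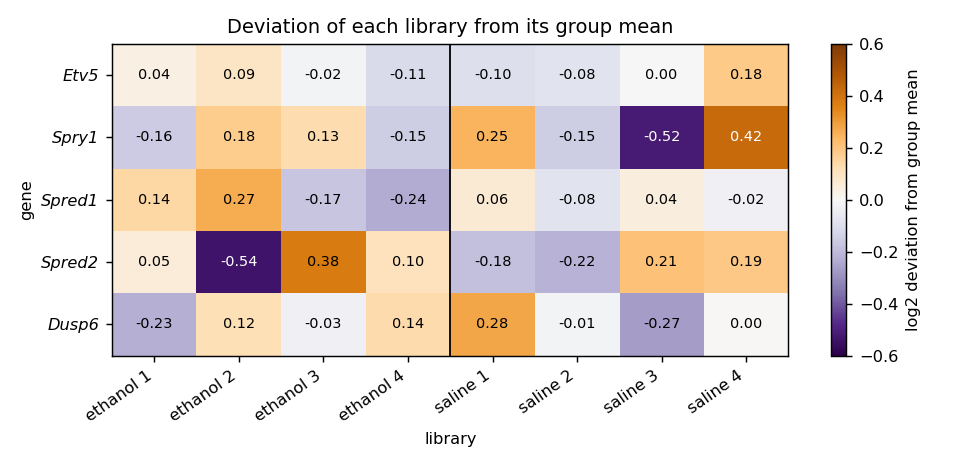
Deviation of log2(value + 1) from the group mean for the 5 fitted genes, in the 4 ethanol libraries (left) and the 4 saline libraries (right). Etv5 deviates most in saline 4, at 0.18, Spry1 reaches -0.52 in saline 3 and Spred2 -0.54 in ethanol 2. All 5 genes lie below their group mean in saline 2, and in the other 7 libraries they lie on both sides.

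Whether the expressed members moved together from library to library was examined after the group means had been removed, which takes out the contrast the choice rested on. The 10 pairs of 5 genes were compared over 8 libraries with exact permutation tests of libraries within groups, two-sided and adjusted over the 10 pairs (Benjamini-Hochberg). None of the 10 pairs passed an adjusted p of 0.05, and none had an unadjusted p under 0.05. The most alike were Spry1 and Dusp6, with a Pearson r of 0.64 (exact p = 0.137, adjusted p = 0.590) and a Spearman rho of 0.71 (exact p = 0.0868, adjusted p = 0.812). Without the 2 libraries in which Spry1 was farthest from its median, saline 3 and saline 4, r was 0.61. Etv5 had an r of 0.47 with Spred1 (exact p = 0.188, adjusted p = 0.590; rho = 0.55, exact p = 0.208, adjusted p = 0.812), and without saline 4 and ethanol 4 it was 0.72. Etv5 and Spry1 had an r of 0.44 (exact p = 0.455, adjusted p = 0.894) and a rho of 0.19 (exact p = 0.705, adjusted p = 0.990). Without saline 4 and ethanol 4 the r was -0.53, so even its sign depended on those libraries. Etv5 and Dusp6 had an r of -0.28 (exact p = 0.575, adjusted p = 0.894; rho = -0.38, exact p = 0.406, adjusted p = 0.812), and -0.36 without the same pair. Spred1 and Spred2, the most opposed pair, had an r of -0.63 (exact p = 0.198, adjusted p = 0.590; rho = -0.52, exact p = 0.326, adjusted p = 0.812), and -0.35 without ethanol 2 and ethanol 4. The spread around the group means was smallest for Etv5, with a residual SD of 0.11 on the log2 scale. It was 0.18 for Spred1, 0.20 for Dusp6, 0.32 for Spred2 and 0.32 for Spry1. Etv5 was chosen with its separated groups in view, which favours a small spread. Centring does not take that out, so this order is a description.

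The genes whose group-centred profile was most like that of Etv5 over the 8 libraries, among 9915 genes averaging 50 normalized counts or more, were Ubox5 (r = 0.97), Dnajc1 (r = 0.96), Slc25a30 (r = 0.95), Fn3krp (r = 0.94) and Cacfd1 (r = 0.94). With few libraries and many genes, some high values of r are bound to occur. Of the 9915 genes, 21 (0.212%) exceeded 0.9, and the median absolute r was 0.28. The genes share these libraries and their depth, and the ranking is a description.

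Upstream of the feedback genes, Csf1r was expressed at 129219, 138877, 117436 and 130958 normalized counts in ethanol samples 1 to 4, against 124452, 130029, 128733 and 126097 in saline samples 1 to 4. The fold was 1.01 (95% interval 0.937 to 1.09), and its log2 value was 0.018, or -0.046 under quantile normalization. The list of 23 receptors and ligands had 15 tested genes, 10 with a positive and 5 with a negative fold change, and 0 passed the test in either direction (limma adjusted p under 0.05, against 0% of all genes). Their median log2 fold change was 0.04, beside -0.0054 for all 14428 genes. The largest and smallest in the list were Fgfr2, a fibroblast growth factor receptor gene near the detection limit (14.7 ± 8.52 in ethanol and 7.40 ± 6.79 normalized counts in saline, SD, n = 4 each), and the growth factor gene Igf1 (54.0 ± 8.20 in ethanol and 74.5 ± 40.2 in saline).

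Between the receptors and ERK, 0 genes of the 3 lists that follow passed in either direction. The adaptors and Ras exchange factors (19 of 20 tested) had 9 positive and 10 negative fold changes and a median log2 fold change of -0.02, or 11, 8 and 0.01 without saline 3. Grb2, the adaptor that brings the exchange factor Sos to receptors, had a fold of 0.976 (95% interval 0.871 to 1.09). Gab3, a docking protein gene of macrophages, had 137, 127, 73.2 and 112 normalized counts in ethanol samples 1 to 4, against 149, 173, 154 and 180 in saline samples 1 to 4. Each ethanol library of Gab3 lay below each saline library, as for 1.2% of all tested genes, and its fold was 0.672 (95% interval 0.479 to 0.941) with a limma adjusted p of 0.997. At the other end of that list, Rasgrp4, an exchange factor gene, had a log2 fold change of 0.26 (95% interval -0.41 to 0.93). Ras genes and their GTPase activators (13 of 13 tested) had 5 positive and 8 negative fold changes and a median of -0.03. Within it, Nras had a fold of 0.943 (95% interval 0.833 to 1.07), and the extremes were Rasal2 at 0.32 and Rras2 at -0.28 on the log2 scale.

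The kinases of the cascade had fold changes on both sides of 1. In the list of Raf, MEK and ERK kinases with their scaffolds (14 of 15 tested), 7 fold changes were positive and 7 negative, with a median log2 fold change of 0.0040, or -0.02 without saline 3. The folds were 1.03 for Braf (95% interval 0.876 to 1.20), 1.03 for Map2k1 (0.896 to 1.17), 0.981 for Map2k2 (0.851 to 1.13) and 1.02 for Mapk3 (0.887 to 1.18). Mapk3, an ERK kinase gene, had 2381, 3013, 2214 and 2989 normalized counts in ethanol samples 1 to 4, against 2589, 2646, 2473 and 2541 in saline samples 1 to 4, and the ethanol range enclosed the saline range. The highest of the list was the scaffold gene Iqgap1, with a fold of 1.35 (1.02 to 1.77). Each of these 5 genes had an adjusted p of 0.997 (limma).

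**Figure D4:**
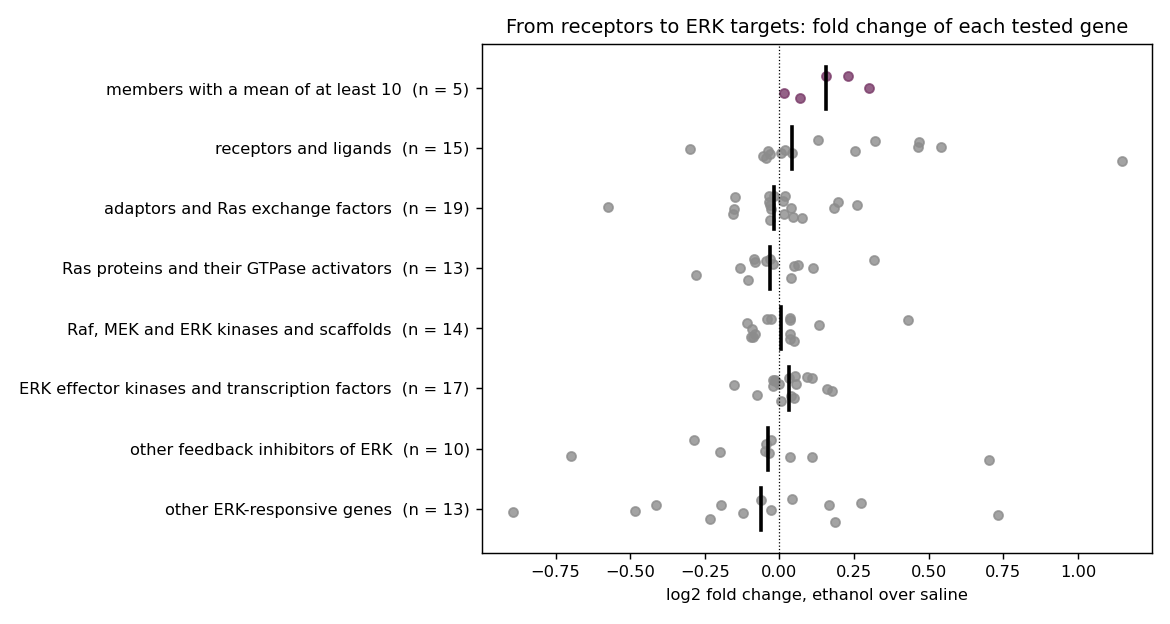
Log2 fold change, ethanol over saline, of each tested gene in the group and in 7 lists of the cascade, with vertical bars at the medians. The list medians lie between -0.06 and 0.04, and that of the 5 tested members, which were chosen on this comparison, is at 0.15.

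Downstream, the 17 ERK effector kinases and transcription factors, each of which was tested, had 10 positive and 7 negative fold changes, 0 of them past the test, and a median of 0.03. Without saline 3 there were 7 positive and 10 negative, with a median of -0.0032. The repressor gene Cic had a fold of 0.990 (95% interval 0.855 to 1.15). Elk3, an ETS factor of the ternary complex group, had 2352, 2442, 2275 and 2229 normalized counts in ethanol samples 1 to 4, against 2182, 2152, 2044 and 1854 in saline samples 1 to 4. The groups of Elk3 did not overlap, as for 1.12% of genes on the higher side, and its fold was 1.13 (95% interval 1.00 to 1.27) with a limma adjusted p of 0.997. Rps6ka2, an ERK-activated kinase gene, was lowest in this list at -0.15 on the log2 scale.

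Other feedback inhibitors and other ERK-responsive genes held no gene past the test, and the signs in the second list depended on saline 3. Of all 14428 genes, 51.2% had a negative fold change. Of 10 tested inhibitors, 3 fold changes were positive and 7 negative (4 and 6 without saline 3), with a median log2 fold change of -0.04 and none past the test. The extremes, Dusp2 (0.70, 95% interval -0.81 to 2.21) and Spred3 (-0.70, -2.39 to 0.99), were both near the detection limit. Of 13 tested ERK-responsive genes, 5 were positive and 8 negative, with a median log2 fold change of -0.06 and none past the test. Without saline 3, the library with the highest immediate early genes, 12 of the list were tested, 9 were positive and 3 negative, and the median was 0.15. Fos, the lowest of the list at -0.89 with saline 3, fell below the mean of 10 without it and left the fit. The list holds Fos, Egr1 and Ier2, which were highest in saline 3. Leaving that library out therefore raises such genes by construction, and nothing is read from the shift. With all libraries, the highest in the list was Epha2, an ephrin receptor gene, with 183, 332, 526 and 261 normalized counts in ethanol samples 1 to 4, against 197, 199, 124 and 223 in saline samples 1 to 4. Its groups overlapped, and the fold was 1.66 (95% interval 1.12 to 2.47) with a limma adjusted p of 0.997. Ccnd1, the cyclin D1 gene, had 235 ± 87.0 in ethanol and 199 ± 31.2 in saline libraries (SD, n = 4 each). Over the 101 tested genes of all 7 lists, 49 fold changes were positive and 52 negative, 0 passed, and the median was -0.01.

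The immediate early genes, which respond to ERK and to the handling of cells during sorting, set saline 3 apart. Fos had normalized counts of 0, 0, 4.01 and 2.06 in ethanol samples 1 to 4, and 181 in saline 3 against 0 in the other saline libraries. Dusp1, a phosphatase gene of this class, had 73.9, 88.2, 156 and 154 in ethanol samples 1 to 4, against 80.4, 89.7, 503 and 96.3 in saline samples 1 to 4. Its log2 fold change was -0.29, and 0.34 without saline 3. The summed share of the 10 immediate early genes, 9 of them tested, was 0.0609% to 0.0757% in ethanol and 0.0571% to 0.104% in saline libraries, with saline 3 highest. In that library Spry1 and Dusp6 were at their lowest of the 8, while Etv5, at 2984, lay within the range of the other saline libraries.

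Gene-assigned reads numbered 14271351 to 17231301 in a library. Markers of microglia made up 4.32% to 4.63% of the normalized counts in ethanol and 4.09% to 4.41% in saline libraries (10 of 10 markers tested, two-sided exact permutation p = 0.0857, adjusted p = 0.629 over 11 lists, the smallest p the design allows being 0.0286). Astrocytes and oligodendrocyte precursors are brain cells known to express Etv5 and Sprouty genes. Astrocyte markers, 9 of 10 tested, made up 0.0411% to 0.0594% in ethanol and 0.0446% to 0.0556% in saline libraries (exact permutation p = 0.714). This share follows mainly Slc1a3, which averaged 6222 normalized counts in ethanol and 6011 in saline libraries. Other astrocyte markers were far lower and went both ways. Gfap averaged 40.3 in ethanol and 48.4 in saline, Aqp4 32.6 in ethanol and 40.7 in saline, and Gja1 65.3 in ethanol and 54.1 in saline. Precursor markers, 0 of 6 tested, summed to 0% to 0.000399%, with a mean of 0.000197%, in ethanol and 0% to 0.000128%, with a mean of 5.62e-05%, in saline libraries (exact permutation p = 0.171, adjusted p = 0.629). Of these markers, Olig1 averaged 13.6 normalized counts in ethanol and 3.46 in saline libraries, and Pdgfra averaged 11.7 in ethanol and 0.765 in saline libraries. Olig2 averaged 2.76 in ethanol and 2.91 in saline, Cspg4 1.53 in ethanol and 1.25 in saline, and Sox10 0.815 in ethanol and 0.255 in saline. Border macrophage markers (7 of 7 tested) made up 0.00516% to 0.00792% in ethanol and 0.00323% to 0.0157% in saline libraries. Neutrophil markers (6 of 8 tested) varied more, at 0.0139% to 0.0575% in ethanol and 0.0152% to 0.0809% in saline libraries. Oligodendrocyte markers (5 of 7 tested) made up 0.0183% to 0.0210% in ethanol and 0.0189% to 0.0211% in saline libraries. The part of other cells in the Etv5 values was not tested.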

How the data were processed

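Total RNA of sorted microglia was amplified with a SMARTer kit and made into NexteraXT libraries, per the labels' protocols; these libraries do not mark strand. The submitters' processing notes name the build GRCm39 and the tools STAR 2.7.9a, Salmon 1.5.2, featureCounts 2.0.1 (Subread), bcl2fastq 2.19.1, R 4.2.2 and DESeq2. What each did, with which settings and annotation, is not given in the sources used here. The authors deposited 1 signal value per gene and library, which the table's name describes as counts divided by a DESeq2 size factor.

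Values were tested here as log2(value + 1) with limma 3.58.1 (trend) in R 4.3.3, with an intercept and the group, two-sided, on 14428 genes with a mean of at least 10. Benjamini-Hochberg adjustment was over all of them, at 0.05. All of the non-zero values were whole multiples, within 1e-06, of the smallest in their library, which gives the read totals. Intervals are limma's and reflect spread across libraries. Without molecular identifiers, reads are not independent molecules. The labels' library names tied each column to its sample. Exon lengths came from GENCODE M21 by symbol, without coordinates.

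The members and lists were chosen with earlier results of these data known. Named genes were the 8 members, the largest and smallest fold change in each of 7 cascade lists, 11 fixed genes, and the 5 genes most like Etv5 (mean of at least 50, no numbered gene models or clone names). Some further genes of the cascade are not reported here. Etv1, Nf1 and Gm42922 were chosen after their values were seen. Fits with other pseudocounts, filters, scalings, covariates and libraries left out were compared. Count models, planned as alternatives, were not run.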

Additional observations from a re-analysis of the deposited data

Results flagged for a closer look

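Among 98 groups of 4 libraries examined (a named gene or a marker list, within ethanol or within saline), 7 held 1 library far from the other 3. Chance alone flags about 1 in 20 such groups. The groups are not independent, as Fos and Dusp1 are also summed in the immediate early list, so the 7 are not set against that rate. Ethanol 3 held all of the Dusp4 of its group, at 11.0 normalized counts against 0 in the other 3. Ethanol 4 was low for Fgfr2, at 2.06 normalized counts against 17.0 to 20.1. Saline 2 was high for Map2k1, at 2524 against 2256 to 2299. Saline 3 was high for Fos, at 181 against 0, for Dusp1, at 503 against 80.4 to 96.3, and for the summed share of immediate early genes, at 0.104% against 0.0571% to 0.0610%. Ethanol 2 was high for the share of border macrophage markers, at 0.00792% against 0.00516% to 0.00539%. These causes were not tested.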

How the results depend on the processing

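Under all 18 alternatives run, limma called 0 genes, 0 members and 0 cascade genes. Genes at an unadjusted limma p under 0.05 numbered 524 of 14428 in the main fit. They numbered 376 of 10919 with a mean of at least 50 and 999 of 26812 with no filter, so these counts follow the number of genes tested. As a share, they were most frequent in samples 1 and 2 alone (785 of 14349) and least frequent without saline 1 (429 of 14440). Quantile normalization moved the median log2 fold change of all genes to -0.0010 from -0.0054. Count models were not run. With the sample number as a replicate block, 0 genes were called and 645 had an unadjusted p under 0.05. Deviations of same-numbered ethanol and saline libraries correlated at only 0.014 to 0.080 over genes, and the ethanol libraries of samples 1 and 4 correlated best with another number, so the numbers were not taken as pairs. The log2 difference of Etv5 stayed positive throughout, between 0.27 and 0.36 with 1 library left out and between 0.14 and 0.46 otherwise. As its groups do not overlap, leaving out or splitting libraries could not have changed that sign. Spry1 (0.056 to 0.37 with 1 library left out) and Spred2 (0.029 to 0.33) stayed positive too, and Spred1 (-0.020 to 0.15, and -0.14 in samples 3 and 4 alone) and Dusp6 (-0.075 to 0.11, and -0.17 in samples 1 and 2 alone) did not.

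Of the 24 named cascade genes with a fitted fold change, 13 changed sign somewhere, none of them called in any fit; the cause was not tested. With 1 library left out, log2 fold changes ran from -0.42 to 0.064 for Rps6ka2, -1.17 to 0.15 for Spred3, -0.018 to 0.063 for Csf1r, -0.085 to 0.020 for Grb2, -0.049 to 0.086 for Braf, -0.0051 to 0.13 for Map2k1, -0.060 to 0.014 for Map2k2, -0.031 to 0.12 for Mapk3, -0.052 to 0.027 for Cic, -0.54 to 0.34 for Dusp1 (positive without saline 3) and -0.042 to 0.34 for Ccnd1. In samples 1 and 2 alone they were -0.19 for Rasgrp4 and 0.0089 for Grb2. In samples 3 and 4 alone they were -0.054 for Rasal2, 0.48 for Rps6ka2, 0.53 for Spred3, -0.039 for Csf1r, -0.029 for Map2k1, 0.0021 for Map2k2 and 0.11 for Cic. With the library-name number fitted as a factor they were 0.0057 for Rps6ka2, -0.0086 for Braf and 0.010 for Map2k2, and under quantile normalization -0.046 for Csf1r and 0.00040 for Cic.

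Without saline 3, an alternative chosen after seeing the data for the lists, positive and negative fold changes numbered 11 and 8 among adaptors (9 and 10 with it), 7 and 10 among effectors (10 and 7 with it) and 9 and 3 among ERK-responsive genes (5 and 8 with it), and no gene was called. For the ERK-responsive list the shift was partly built in, because saline 3 was chosen for its high immediate early genes.

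None of the 10 pairs of members passed under any alternative. With 1 library left out, the group-centred r ran from -0.10 to 0.69 for Etv5 and Spry1, -0.33 to 0.61 for Etv5 and Spred2, -0.12 to 0.28 for Spry1 and Spred1, -0.47 to 0.094 for Spry1 and Spred2, and -0.44 to 0.15 for Spred1 and Dusp6. Centred also within samples 1 and 2 and within samples 3 and 4, it was -0.028 for Etv5 and Spred1, -0.064 for Etv5 and Spred2, 0.41 for Etv5 and Dusp6, and 0.48 for Spred1 and Dusp6. The r of Etv5 with the 5 genes most like it, tried after seeing the data, lay between 0.86 and 0.99 with 1 library left out. Those genes were picked by their r in these same libraries, so high values are largely built in. Low counts limit Etv4, Spry2 and Dusp4, for which no difference was detectable at this depth.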
